A study of Mus musculus with 6 samples.

Results

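The myogenic bHLH and Mef2 factors of the embryonic mouse tongue were 9 genes, chosen by name: Myf5, Myod1, Myog, Myf6, Msc, Tcf21, Mef2a, Mef2c and Mef2d. All probe sets annotated with 1 of these symbols alone were taken, which gave 22 of the 34945 probe sets with 1 gene symbol and 9 of 18193 genes. The arrays came from C57BL/6J tongues at embryonic day 14.5. The 3 mutants were Tgfbr2 fl/fl; Wnt1-Cre and the 3 controls Tgfbr2 fl/fl, so both groups carried the floxed alleles and the controls, titled wildtype, lacked the Cre. Wnt1-Cre acts in the neural crest and its descendants, which form most tongue connective tissue, whereas the skeletal muscle cells in which these factors work derive from mesoderm and keep an intact Tgfbr2. Not all members are confined to muscle. Tcf21 is also expressed in connective tissue cells, and Mef2c in endothelium and neural crest derivatives. The part of each cell type in a member's signal was not tested. The product of Tgfbr2 is the type II TGF-beta receptor, and the design asked which genes depend on it while tongue muscle forms.

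The bHLH factors and the Mef2 factors form the core of the skeletal muscle programme. Myf5, Myod1 and Myf6 commit cells to the muscle lineage and Myog drives their fusion and differentiation; each binds the E-box, written CANNTG, together with a partner E protein. Msc and Tcf21 are bHLH repressors needed for jaw muscles, and Mef2 proteins bind an A/T-rich site beside E-boxes and strengthen transcription of contractile genes.

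Of the 9 genes, Msc was lower in the mutants, by 1.58-fold, and none passed in the higher direction. Myf6 had the largest difference, 1.78-fold lower, but did not pass the threshold, and the other 7 did not pass it either. The call used limma over 13645 genes with Benjamini-Hochberg adjustment and an adjusted p under 0.05, which 2.14% of all tested genes met, 0.821% lower and 1.32% higher. Without mutant array 1 Msc was again the 1 member called, against 4.91% of all genes and 1.74% in the lower direction, and with the array number as a block it was the 1 called against 3.59%. The log2 difference was negative for 8 of the 9, against 46.6% of all tested genes, with a median of -0.18 against 0.016 over all genes. Leaving out mutant array 1, it was negative for 5 of the 9, against 45.7%, with a median of -0.100. The unadjusted p was under 0.05 for 4 members (Myf5, higher, and Myf6, Msc and Mef2c, lower), as for 16.9% of genes in either direction and 7.46% in the lower. Values are log2 expression, listed for arrays 1, 2 and 3 of a group in that order, and brightness is not compared between genes because each probe set binds with its own strength.

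Mutant array 1 stood apart from the other arrays: over the tested genes it correlated with them at 0.966 to 0.978, whereas the coefficients of mutant arrays 2 and 3 with control arrays were 0.984 to 0.989. It was the lowest mutant array for 6 of the 9 members and below the control mean for 8, mutant array 2 for 5 and mutant array 3 for 6. The spread between mutants exceeded that between controls for 8 members, all but Myf6, and the median SD over all genes was 0.169 in mutants and 0.0843 in controls. Tgfbr2 itself read 11.16, 11.79 and 11.69 in the mutants and 11.55, 11.82 and 11.80 in the controls on its brightest probe set, so the groups overlapped, and whether its probes lie in the floxed part was not analysed here. The labels call the material tongue and also tongue mesenchyme, and all 12 surface epithelium markers were above the filter on dim genes. The labels do not say that the arrays came from separate litters, so the p-values cover only the spread among these samples, which may be technical.

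**Figure D1:**
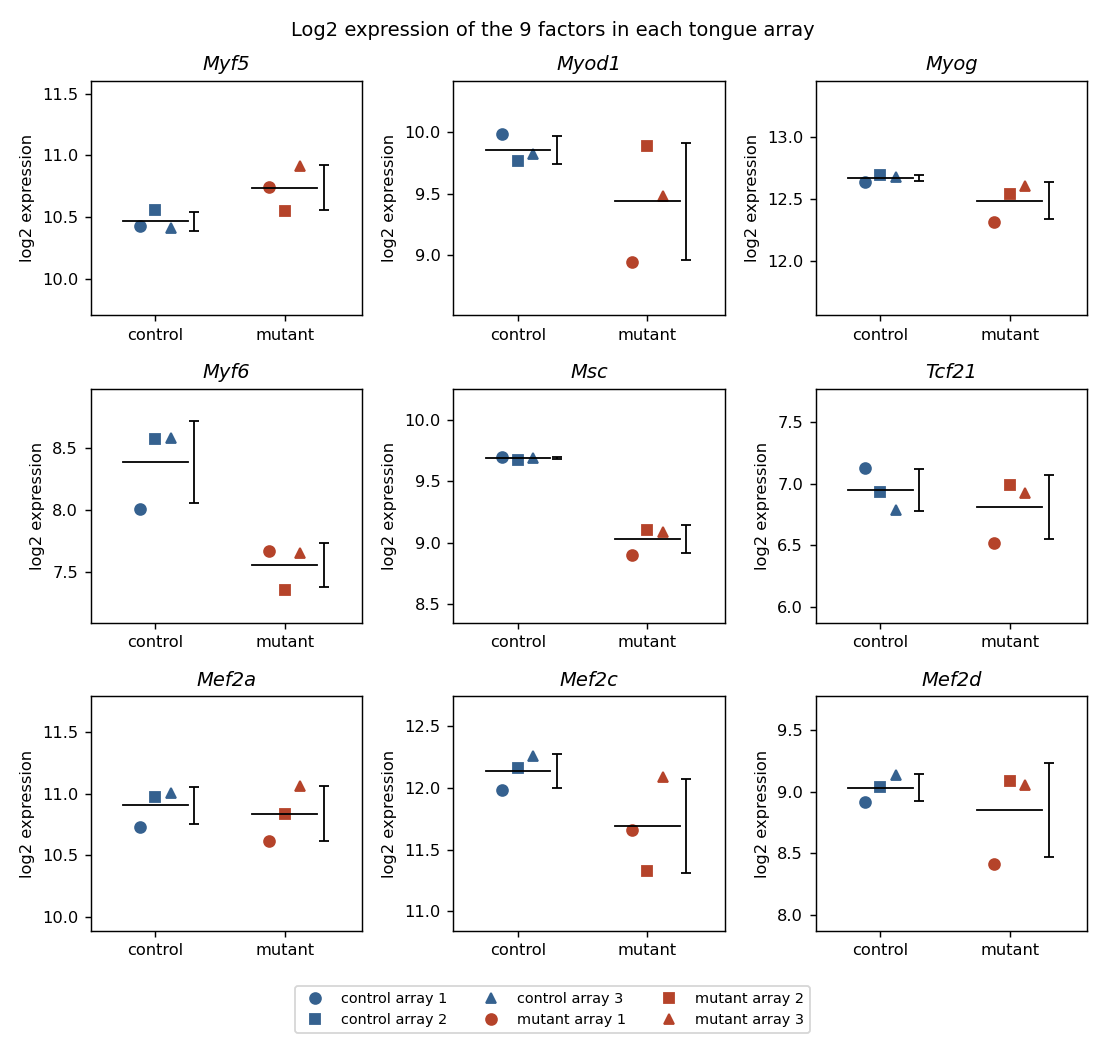
Log2 expression of the 9 factors in each array, 1 panel per gene with a y axis of the same length; points are arrays, the horizontal line is the group mean and the bar to its right is the SD (n = 3). The 3 mutant points lie below the 3 control points for Myog, Myf6 and Msc, and the groups overlap for the other 6 genes.

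Msc, encoding musculin, a bHLH repressor that marks branchial muscle precursors, gave the clearest separation. Its probe set, 1418417_at, read 8.90, 9.10 and 9.08 in the mutants and 9.70, 9.68 and 9.69 in the controls. Every mutant lay well below every control, and the controls differed from each other by less than the mutants did. Groups failed to overlap for 3 members, all lower, and for 25.1% of all tested genes, 11.5% lower and 13.6% higher. In bulk tissue, fewer cells of a type and less RNA per cell cannot be told apart, for Msc as for every gene described. The means were 9.03 ± 0.11 and 9.69 ± 0.011 (SD, n = 3 each), and Msc fell by 0.66 (standard error 0.091, limma adjusted p = 0.0188, 95% interval -0.87 to -0.44). Of all tested genes, 97 had a smaller p. The control SD of Msc was within the lowest 1.77% of the tested genes, and eBayes draws such small spreads towards that of other genes.

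The size of the Msc difference depended little on any array, but its call did. Leaving out each array in turn gave differences of -0.69 to -0.59. Without mutant array 1 the adjusted p was 0.00728. Omitting mutant array 2 gave 0.0542, and omitting control array 1, 2 or 3 gave 0.0730, 0.122 or 0.128 (limma, 5 arrays). Over all genes, these fits called 670 (no mutant array 1), 92 (no mutant array 2), and 140, 15 and 18 (no control array 1, 2 or 3), against 292 with all arrays. With sex, read from Xist and Y-linked genes, as a covariate the difference was -0.64 (adjusted p = 0.0592).

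Tcf21, encoding capsulin, the close relative of musculin in branchial muscle that is also expressed in connective tissue cells, showed no such separation. It read 6.52, 6.99 and 6.92 in the mutants and 7.13, 6.93 and 6.79 in the controls. Mutant array 1 was the lowest of the 6, and the other mutants lay among the controls. The log2 difference was -0.14 (standard error 0.15, adjusted p = 0.685, 95% interval -0.49 to 0.22) and 0.010 without mutant array 1. A further Tcf21 probe set had a mean of 4.08, under the filter value of 5.17, and differed by 0.14. Msc lies at chr1:14753344-14756089 and Tcf21 at chr10:22817263-22820143 (GRCm38.p6).

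Of the 4 myogenic regulatory factors, Myf6 had the largest difference. Myf6, also called MRF4, is expressed in early muscle precursors and again in maturing fibres. Its values were 7.67, 7.35 and 7.65 in the mutants and 8.01, 8.58 and 8.58 in the controls. All mutants lay below all controls, but control array 1 stood about midway between the mutants and the other 2 controls. The means were 7.56 ± 0.18 and 8.39 ± 0.33 (SD, n = 3 each), a log2 difference of -0.83 (standard error 0.18, 95% interval -1.25 to -0.42) with an adjusted p of 0.0682 (limma). Without control array 1 the difference was -1.03 and passed (adjusted p = 0.0392), and with array quality weights it passed as well (-0.99, adjusted p = 0.00808). The difference lacking mutant array 1 was -0.89 (adjusted p = 0.0503).

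Myf5, the factor that is active earliest in most muscle precursors, was the only member with a positive difference. It read 10.74, 10.55 and 10.92 in the mutants and 10.43, 10.55 and 10.41 in the controls. Mutant arrays 1 and 3 lay above all controls, and mutant array 2 matched control array 2. The difference was 0.27 (standard error 0.11, adjusted p = 0.288, 95% interval 0.0054 to 0.54) and 0.27 without mutant array 1.

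Myf5 and Myf6 are neighbours in the mouse genome. Myf5 spans chr10:107482908-107486927 and Myf6 chr10:107492848-107494723 (GRCm38.p6), with 5920 bases and 0 annotated genes between them. Taken within each array and relative to the control means, Myf5 minus Myf6 was 1.00, 1.13 and 1.19 in the mutants and 0.35, -0.100 and -0.25 in the controls. The mutants lay above the controls, with a mean of 1.11 ± 0.098 (SD, n = 3) against a control SD of 0.31. The exact permutation test gave p = 0.1, the smallest that 3 against 3 allows (2-sided), and this pair was chosen after the values were seen.

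Myod1, a commitment factor that can turn other cell types into muscle, varied widely among the mutants. It read 8.94, 9.89 and 9.48 in the mutants and 9.98, 9.76 and 9.82 in the controls. Mutant arrays 1 and 3 were below every control, array 1 far below, and mutant array 2 lay among them. The difference was -0.42 (standard error 0.22, adjusted p = 0.390, 95% interval -0.94 to 0.098) and ranged from -0.65 without mutant array 2 to -0.17 without mutant array 1. The other Myod1 probe set, whose suffix marks probes shared with similar transcripts, had a mean of 3.04 and was not tested. Myod1 lies at chr7:46376474-46379092.

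Myog, the differentiation factor, differed little. It read 12.32, 12.54 and 12.61 in the mutants and 12.64, 12.69 and 12.68 in the controls. The mutants lay below the controls, mutant array 3 by a narrow margin. The difference was -0.18 (standard error 0.10, adjusted p = 0.409, 95% interval -0.42 to 0.053) and -0.100 without mutant array 1.

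The Myog promoter shows the sites that these factors use. The 250 bases before its start (chr1:134289754-134290003, plus strand, GRCm38.p6, RefSeq) are printed 5′ to 3′, with E-boxes (CANNTG, which reads the same on both strands) and a match to the MEF2 consensus, its last base left free, in capitals.
Myog: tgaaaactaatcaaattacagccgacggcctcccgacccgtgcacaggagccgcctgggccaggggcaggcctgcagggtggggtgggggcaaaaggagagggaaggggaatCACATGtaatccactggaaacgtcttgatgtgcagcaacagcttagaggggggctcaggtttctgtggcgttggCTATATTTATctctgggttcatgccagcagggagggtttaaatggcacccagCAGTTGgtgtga
The MEF2 match lies 64 to 55 bases and an E-box 12 to 7 bases before the start. The other E-box lies 138 to 133 bases before it. Among 32851 RefSeq promoter windows of this length, 66.2% held an E-box and 7.03% a MEF2 match on either strand, and the motifs printed do not overlap. Promoter entries were matched for 6 of the 9 members, and 2 of these, Myog and Mef2c, held both motifs in an entry. The entries of Myf5, Tcf21, Mef2a and Mef2d held neither an E-box nor a MEF2 match. A match describes the letters and was not measured as binding.

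The Mef2 genes encode MADS-box factors that act with the bHLH factors, and none of the 3 passed. Mef2c, which muscle shares with endothelium and neural crest derivatives, had the largest differences, negative on all 5 of its probe sets, between -0.56 and -0.30. On the brightest, 1421027_a_at, it read 11.66, 11.33 and 12.09 in the mutants and 11.99, 12.17 and 12.26 in the controls. Mutant arrays 1 and 2 were below all controls and mutant array 3 lay among them. The difference was -0.45 (standard error 0.19, adjusted p = 0.292, 95% interval -0.89 to -0.0037). Mef2c on this probe set was lowest in mutant array 2. On 1451506_at, 1424852_at, 1421028_a_at and 1451507_at it was lowest in mutant array 1, and endothelial markers were also lowest in mutant array 1. The median of these markers relative to controls was -0.80 in mutant array 1 and -0.047 and -0.081 in mutant arrays 2 and 3. None of the 10 was called, and their summed level was 10.71 to 11.28 (log2) in mutants and 11.28 to 11.41 in controls. Their part in the Mef2c values was not tested.

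The Mef2c probe sets fell into kinds that differed in mutant array 2. Relative to the control mean, mutant array 2 read -0.81 and -0.74 on 1421027_a_at and 1421028_a_at, whose suffix marks probes that match alternative transcripts of a gene. It read -0.37, -0.21 and -0.39 on 1451506_at, 1424852_at and 1451507_at, which share an accession. In mutant array 1 these kinds did not divide, with -0.48 and -0.77 on the former and -0.56, -0.68 and -0.68 on the latter. Without mutant array 1 the former gave -0.43 and -0.46 and the latter -0.17, -0.11 and -0.21. Those differences include mutant array 2, so they are not a separate view of the division. Which transcripts each probe set reads was not analysed here, and this grouping was made after the values were seen. The annotation lists 3 promoter windows for Mef2c, and the most upstream, chr13:83503784-83504033 (plus strand, GRCm38.p6, RefSeq), is shown because it holds E-boxes and a MEF2 match, in capitals as above.
Mef2c: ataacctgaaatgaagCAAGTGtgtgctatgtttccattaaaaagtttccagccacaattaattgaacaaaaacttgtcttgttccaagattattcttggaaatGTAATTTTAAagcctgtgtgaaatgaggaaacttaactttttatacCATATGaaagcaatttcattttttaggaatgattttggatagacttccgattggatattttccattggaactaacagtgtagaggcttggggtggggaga
Its E-boxes lie 234 to 229 and 100 to 95 bases before the start, and the MEF2 match lies between them, at 146 to 137 bases.

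The groups overlapped for Mef2a and Mef2d on their brightest probe sets. On its brightest probe set Mef2a read 10.61, 10.83 and 11.06 in the mutants and 10.73, 10.98 and 11.01 in the controls, with a mutant at both ends of the range. The difference was -0.068 (standard error 0.14, adjusted p = 0.839, 95% interval -0.39 to 0.26), it was 0.044 without mutant array 1, and its 6 probe sets ranged from -0.36 to 0.061. Mef2d read 8.41, 9.09 and 9.06 in the mutants and 8.92, 9.03 and 9.14 in the controls. Mutant array 1 alone lay below the controls. The difference was -0.18 (standard error 0.19, adjusted p = 0.663, 95% interval -0.61 to 0.26), 0.041 without mutant array 1, and the 3 probe sets ranged from -0.18 to 0.028. Of these, 1437300_at lay lower in all mutants than in any control, at 8.21 ± 0.059 against 8.35 ± 0.042 (SD, n = 3 each), a difference of -0.14 (adjusted p = 0.454, limma over probe sets).

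Every probe set of the 9 genes above the filter value was also tested on its own. Of the 20 tested, 17 had a negative difference, against 50.8% of 24307 probe sets, and 1 was called, lower, that of Msc (adjusted p = 0.0259), against 1.49% of probe sets in either direction and 0.654% lower. Groups did not overlap for the probe sets of Myog, Myf6 and Msc and for 1 of the 3 of Mef2d, 1437300_at, against 25% of all. The Myf6 probe set had an adjusted p of 0.0840 in this fit. Probe sets of a gene share its RNA and are not independent.

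**Figure D2:**
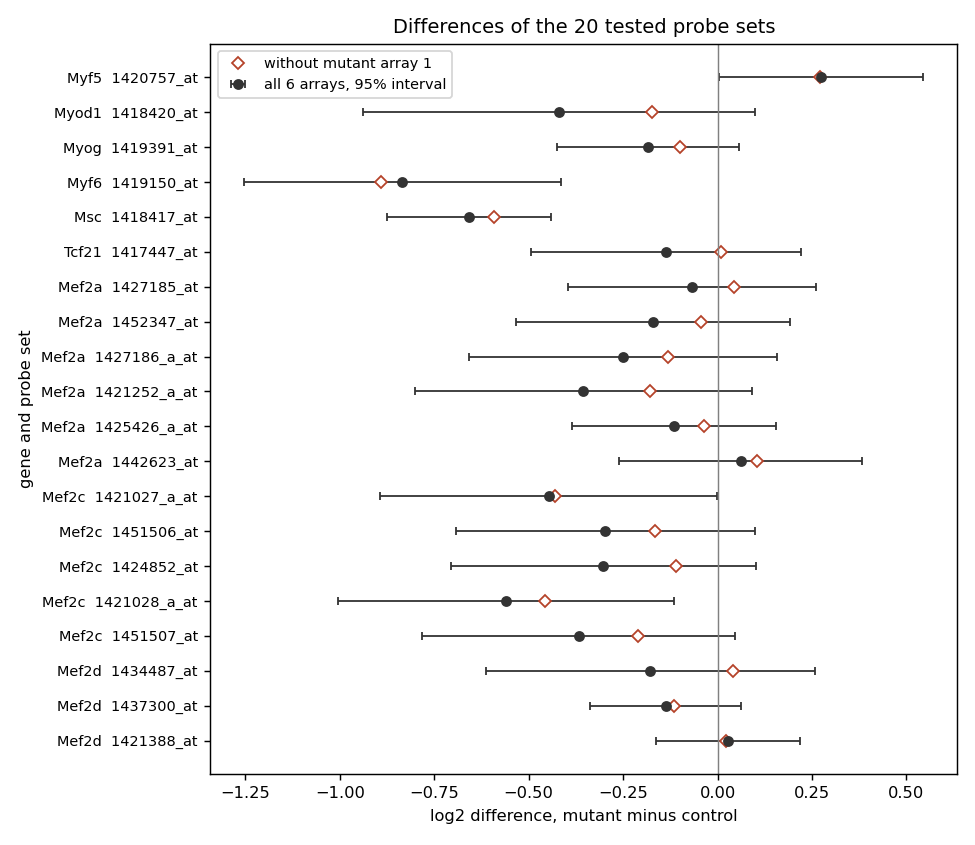
Log2 difference (mutant minus control) of the 20 tested probe sets of the 9 factors, with 95% intervals from limma (filled points) and the difference without mutant array 1 (open diamonds). The intervals of Myf6, Msc and the 2 Mef2c probe sets 1421027_a_at and 1421028_a_at lie wholly below 0, that of Myf5 above it, and the diamonds of most Myod1, Mef2a, Mef2c and Mef2d probe sets lie nearer to 0 than the points.

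The members were also set against a muscle reference of 15 structural and membrane genes. None of the 15 was called (limma), and 13 had a negative difference, against 46.6% of all genes. An unadjusted p under 0.05 was found for 8, all lower, against 7.46% of all genes. With the array number as a block 3 were called lower, against 3.59% of all genes in either direction. Relative to control means, the median of the reference was -0.51, -0.35 and -0.17 in the mutants and -0.12, 0.075 and 0.045 in the controls, a difference of -0.34 (exact permutation p = 0.1, the smallest possible). By the mean of the 15 genes the groups overlapped, since control array 1, at -0.24, lay below mutant array 3, at -0.15, and the difference was -0.38 (exact permutation p = 0.2). Tnnc1, the slow troponin C gene, went the other way without overlap (0.22, adjusted p = 0.312). The summed level of the 15 reference genes was 16.20 to 16.45 (log2) in mutants and 16.47 to 16.73 in controls.

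Against this reference the Msc values again lay lower in the mutants. Its values were -0.28, -0.23 and -0.43 in the mutants and 0.13, -0.087 and -0.043 in the controls, which did not overlap. The same held for 1.57% of all tested genes in this direction and 46% in either. The difference was -0.31 (exact permutation p = 0.1, n = 3 each). Subtracting a reference that was itself lower in the mutants moves all genes upwards, which makes separation in the lower direction rarer. Before the subtraction Msc differed by -0.66. The median difference was -0.66 in the list of Mef2 targets and -0.29 in that of bHLH targets, both described below. Whether Msc fell beyond muscle genes in general was not tested. Myf6 read -0.21, -0.69 and -0.57 in the mutants against -0.26, 0.11 and 0.15 in the controls, so that mutant array 1 overlapped control array 1 (-0.49, exact permutation p = 0.2). Myf5, Myog and Mef2a did not overlap in the higher direction, with differences of 0.62, 0.16 and 0.28 (exact permutation p = 0.1 each). That direction was shared by 44.5% of all tested genes, so nothing particular to these 3 is read from it. Myod1, Mef2c, Tcf21 and Mef2d overlapped, with differences of -0.075, -0.10, 0.21 and 0.17 (exact permutation p = 0.8, 0.9, 0.3 and 0.4).

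**Figure D3:**
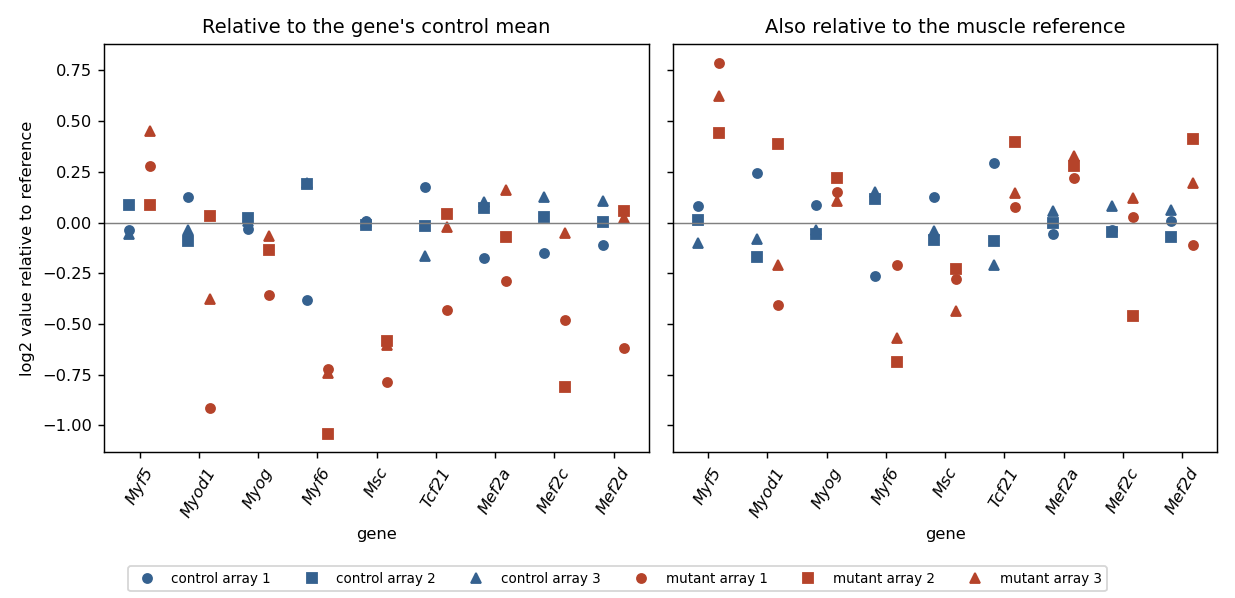
Log2 values of the 9 factors in each array relative to the gene's control mean (left) and after also subtracting the median of the 15 muscle reference genes of that array (right), with the same y axis; points are arrays. Msc stays below the controls in both panels, and Myf5 lies higher on the right, with mutants between 0.44 and 0.79.

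The partners that bHLH factors need, and the proteins that block them, showed 1 call, against 1.32% of all tested genes in the higher direction. Of 18 such genes, Mdfic, encoding a relative of the MyoD family inhibitor, rose by 0.75 (standard error 0.086, adjusted p = 0.0105), with 10.12, 10.17 and 10.03 in the mutants and 9.41, 9.33 and 9.32 in the controls. None was lower. Without mutant array 1, 2 were higher, Mdfic and Snai2 (0.54, adjusted p = 0.0186), against 4.91% of all genes called in either direction. Leaving out control array 2 or 3 left none called. With all arrays Snai2 gave 0.42 (adjusted p = 0.149). Id proteins sequester E proteins, and Id4, Id3, Id1 and Id2 had differences of 0.61, 0.55, 0.48 and 0.32 (adjusted p = 0.0927, 0.126, 0.268 and 0.274). The E protein genes Tcf3, Tcf12 and Tcf4 had 0.020, -0.059 and -0.38 (adjusted p = 0.923, 0.873 and 0.559), and Tcf4 read 0.0021 without mutant array 1. The median of the list was 0.021 against 0.016 over all genes.

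Among 18 partners and regulators of Mef2, 1 was called, lower, against 0.821% of all tested genes in that direction. Vgll2, a vestigial-like cofactor of TEAD and Mef2 proteins in skeletal muscle, fell by 1.19 (standard error 0.13, adjusted p = 0.0101), with 8.55, 8.54 and 8.98 in the mutants and 9.80, 9.92 and 9.92 in the controls. Leaving out either control array 2 or 3 ended this call. Tead4, Myocd and Carm1, the next by p, had -0.27, -0.62 and -0.19 (adjusted p = 0.219, 0.317 and 0.491). The class IIa histone deacetylase genes Hdac4, Hdac5, Hdac7 and Hdac9, whose proteins hold Mef2 inactive, had -0.27, -0.032, -0.025 and -0.092 (adjusted p = 0.572 to 0.936). The difference was negative for 16 of 18, against 46.6% of all genes. The median was -0.18, against 0.016 over all genes, and -0.028 without mutant array 1.

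Upstream of the bHLH factors, 12 progenitor regulators were tested and 1 was called, lower: Meox1, a somite homeobox gene (-0.78, adjusted p = 0.0387). In that direction 0.821% of all tested genes were called. Without mutant array 1, 2 were lower and 1 was higher, against 4.91% of all genes called in either direction. None was called when mutant array 2 or any 1 control array was left out. Six4 and Tbx1, which act upstream of myogenic bHLH genes, gave -0.57 and -0.31 (adjusted p = 0.121 and 0.127). The cofactor gene Eya2 gave 0.53 (adjusted p = 0.0548). The median was -0.26, and -0.083 without mutant array 1.

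None of the 24 listed genes taken as targets of myogenic bHLH factors was called. Of 24 tested, 20 had a negative difference, against 46.6% of all genes, with a median of -0.29 (-0.20 without mutant array 1), and 0 passed (limma), while 10 had an unadjusted p under 0.05, all lower, against 7.46% of all genes in that direction. Musk, the receptor kinase of the neuromuscular junction, gave -0.65 (adjusted p = 0.0769), the fast myosin light chain gene Myl1 -0.55 (0.0906), the fast troponin gene Tnni2 -0.61 (0.144) and the fetal acetylcholine receptor gene Chrng -0.66 (0.158). With the array number as a block 2 were called lower, Myl1 (adjusted p = 0.0386) and Acta1, skeletal actin (0.0262), against 3.59% of all genes in either direction. Without mutant array 1, 2 were called lower, Musk (0.0207) and Chrng (0.0289), against 1.74% of all genes in that direction. When control array 1 was left out, 1 was called lower.

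Of 21 targets of Mef2 tested, 2 were called lower and 1 higher, against 0.821% and 1.32% of all tested genes. A negative difference was found for 18, against 46.6% of all genes, with a median of -0.66 (-0.51 without mutant array 1), and 15 had an unadjusted p under 0.05 in the lower direction, against 7.46%. Lmod2, encoding the actin-filament protein leiomodin 2, fell by 2.02 (adjusted p = 0.0373), from 8.66 ± 0.48 in the controls to 6.64 ± 0.67 in the mutants (SD, n = 3 each). Myh6, encoding the heart-type alpha myosin, fell by 1.26 (adjusted p = 0.00792). Mb, encoding myoglobin, rose by 0.94 (adjusted p = 0.0154). With the array number as a block 8 were called lower and 1 higher, against 3.59% of all genes in either direction. The fit lacking mutant array 2 had a lone call, lower, the fit lacking control array 1 had 2, both lower, and the fits lacking control array 2 or 3 had none. The target lists hold genes of the contractile apparatus, so they overlap in content with the muscle reference.

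Markers of other cells were measured on the same arrays. Over all tested genes, 0.821% were called lower and 1.32% higher, and 46.6% had a negative difference. With the array number as a block 3.59% were called in either direction, and without mutant array 1 4.91% were. All 12 surface epithelium markers had a positive difference, with a median of 0.63 (0.44 without mutant array 1) and summed levels of 14.46 to 15.14 (log2) in mutants and 14.10 to 14.25 in controls. None was called without the block, while with the array number as a block 4 were called higher, Krt14, Esrp1, Sox2 and Epcam (adjusted p = 0.031, 0.030, 0.032 and 0.046), and 2 were called without mutant array 1, Krt15 and Krt14. Relative to controls, their median was 1.08, 0.62 and 0.27 in the mutants, in the opposite order to the muscle reference. Of 9 Schwann cell and nerve markers 1 was called higher, Stmn2 (1.07, adjusted p = 0.0272), against 3 with the block, which added Nefl and Fabp7, and 5 without mutant array 1. Their summed levels were 12.11 to 12.56 in mutants and 11.91 to 12.10 in controls. Connective tissue markers had a median of -0.026 and summed levels of 15.64 to 16.18 in mutants against 15.93 to 16.11, and 3 of 15 were called higher, Lum, Dcn and Tbx18 (0.77, 0.65 and 1.11). Of 9 macrophage and blood markers 1 was called lower, the macrophage receptor gene Mrc1 (-1.53, adjusted p = 0.00775), and 2 were without mutant array 1. Differences were positive for 6 of the 9 and negative for 3. Cd68 and Ptprc had differences of 0.54 and 0.23 (limma adjusted p = 0.185 and 0.419). Summed levels of this list were 11.08 to 11.22 in mutants and 11.11 to 11.41 in controls. Of 6 cartilage and bone markers Col9a1 was higher (0.87) and Dmp1 lower (-1.32), and the endothelial marker Cldn5 was called lower without mutant array 1 (adjusted p = 0.0358). RMA values have no zero, so no marker can be read as absent; Hba-a1, Matn1 and Ibsp lay under the filter. The part of these cells in the Msc, Myf6 and target gene values was not tested.

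**Figure D4:**
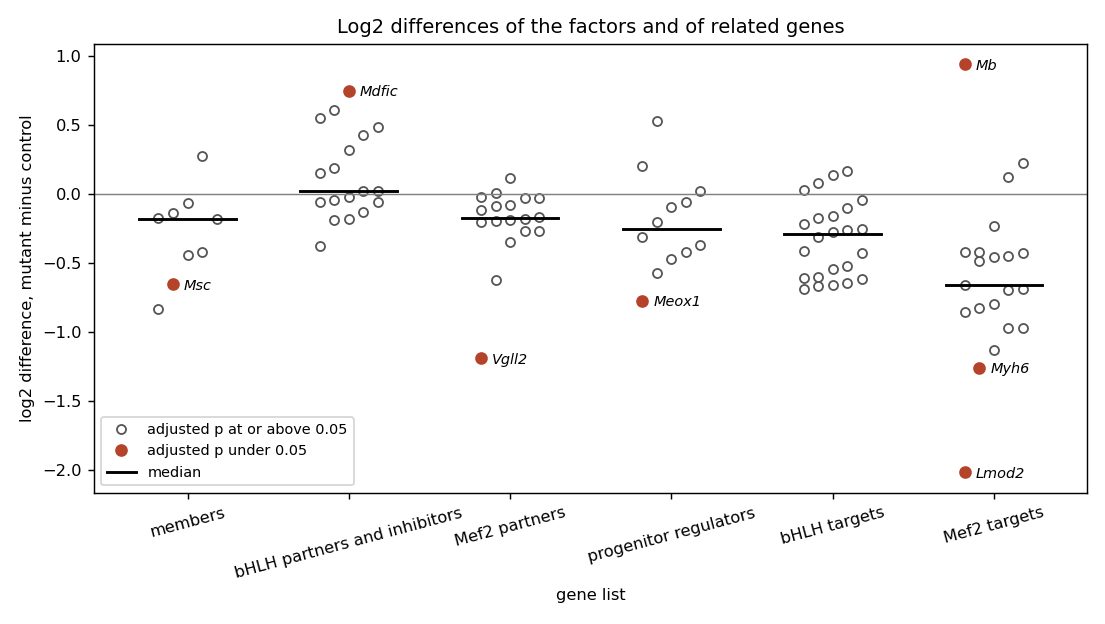
Log2 difference (mutant minus control) of each tested gene, for the 9 factors and 5 lists of related genes; filled points passed an adjusted p under 0.05 (limma, 13645 genes) and are named, open points did not, and horizontal lines are medians. The Mef2 target list has the lowest median, -0.66, and the bHLH partner list one of 0.021.

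The genes whose profile over the 6 arrays was most like that of Msc were Rrm2, a ribonucleotide reductase subunit gene, Ache, encoding acetylcholinesterase, and Fzd8, a Wnt receptor gene. Their values relative to the control mean differed from those of Msc by a root mean square of 0.025, 0.072 and 0.082. For Myf6 the closest were Myl2, a slow and cardiac myosin light chain gene, Ogn, encoding osteoglycin, and Pdlim5, a Z-disc protein gene (0.078, 0.090 and 0.11). Myf6 and these 3 share a control array 1 below the other controls, at -0.38 for Myf6 and between -0.51 and -0.24 for the 3. Likeness was taken only for Msc and Myf6, the members with an absolute difference of at least 0.5, and is a description over 6 arrays.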

How the data were processed

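Total RNA from 6 tongues was hybridised to Affymetrix arrays with biotin labelling, per the labels' protocols. The authors deposited log2 values made with RMA (background correction, quantile normalization, probe summary), as the submitters' processing notes record without a version; RMA compresses differences of dim probe sets. Of 45101 probe sets, 34945 had 1 symbol, 932 several and 9160 none listed. The brightest probe set by mean over 6 arrays stood for a gene, and genes in the lowest 25% (under 5.17) were left out. Differences (mutant minus control) came from lmFit and eBayes of limma 3.58.1 (R 4.3.3, 2-sided), tested on simulated data; figures used matplotlib 3.10.9. Arrays have no read depth, so their number limits precision (median standard error 0.117).

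The members and lists were chosen with earlier results of these data known. Named were all members, called genes of each list and otherwise up to 4 by p, and nearest profiles. A list gene named besides these (Id, E protein and histone deacetylase genes, Tnnc1 and those called under an alternative) was chosen after its values were seen. Marker and related lists, 12 in all, hold 170 genes.

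Array titles carry the numbers 1 to 3 in each group, but the labels state no pairing, and the main fit used none. Same-numbered deviations from group means correlated at 0.309, 0.105 and 0.206. Mutant arrays 1 and 3 correlated best with the control array of their own number, and mutant array 2 correlated best with control array 3. Because no pairing is stated, the number was tried as a block only as an alternative, given where it changes a call or a count. Calls made only with the block rest on this unstated pairing. Alternatives were other filters, probe set means, scalings, fits, weights, the block, a sex covariate and each array left out. RefSeq promoter windows were searched for motifs over the 250 bases before the start. Symbols went through Entrez identifiers to RefSeq (GRCm38.p6), with 0 changes.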

Additional observations from a re-analysis of the deposited data

How the results depend on the processing

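The 9 members kept the direction of their difference under all alternatives run, except as given here. Tcf21 turned to 0.0016 as the mean of its probe sets and 0.022 with array quality weights, and ranged from -0.23 to 0.010 with each array left out; Mef2a ranged from -0.18 to 0.044 and Mef2d from -0.30 to 0.041, turning positive without mutant array 1. None of these 3 passed in any fit. Against the muscle reference, Myod1 ranged from -0.31 to 0.089 (positive without mutant array 1 or control array 1) and Mef2c from -0.21 to 0.074 (positive without mutant array 2). Msc ranged from -0.69 to -0.59 with each array left out and passed in 10 of 15 alternatives; with the sex covariate it was -0.64 (adjusted p = 0.0592). Myf6 ranged from -1.03 to -0.73 with each array left out and passed in 2 of 15, one of them array quality weights (-0.99). Members called numbered 1 in the main setting, 2 with array quality weights, 0 with the sex covariate and 0 to 1 with each array left out; tested by probe set the numbers were 1, 2 with weights and 0 to 1. With the replicate number as a block 1 member was called, Msc (adjusted p = 0.0269), and the block changed no member's call. Genes called numbered 292, and 151 with the lowest 50% left out, 1034 with weights, 490 with the block, 135 with the sex covariate and 15 to 670 with each array left out. Probe sets called numbered 362, and 1058 with weights, 548 with the block and 0 to 713 with each array left out. The causes were not tested. With 3 arrays per group, the intervals of Myod1, Mef2c and Mef2d still hold differences of -0.61 or beyond.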
